A study of Mus musculus with 8 samples.

Results

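The genes described here are 10 regulators of cardiac energy metabolism. They are the fatty acid receptors Ppara, Ppard and Pparg, the coactivators Ppargc1a and Ppargc1b, the estrogen-related receptors Esrra, Esrrb and Esrrg, and the retinoid X receptors Rxra and Rxrg. They were found by gene symbol in the platform's gene table, which pairs symbols with transcript clusters (sets of probes summarised per gene), and all 10 had a cluster that carried no other symbol. They are 10 of 19933 genes with a cluster of their own, and all 10 were among the 14950 genes bright enough to be tested. Levels were read in hearts of C57BL/6 males fed normal chow and 6 weeks old, on Affymetrix Mouse Gene 1.0 ST arrays, with 1 array per heart. Of these hearts 4 came from wild type mice (WT) and 4 from mice deficient in HDAC3 (KO), a line that the series' design text writes as MCH3-KO. What that abbreviation stands for, how the allele was made and which cells lack HDAC3 was not given in the sources used here. Hearts are numbered as biological replicates in their titles, and nothing says whether mice shared a litter.

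Peroxisome proliferator-activated receptors (PPARs) are nuclear receptors for fatty acids and their derivatives, and they bind DNA as heterodimers with a retinoid X receptor (RXR). Estrogen-related receptors (ERRs) are orphan receptors that bind a related DNA element, mostly without RXR, and drive genes of the respiratory chain and the tricarboxylic acid cycle. PGC-1 alpha and PGC-1 beta, the products of Ppargc1a and Ppargc1b, bind no DNA themselves but coactivate both receptor groups, and in heart muscle these factors set the capacity for fatty acid oxidation. Histone deacetylase 3 works in the NCoR and SMRT corepressor complexes that many nuclear receptors recruit.

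In KO hearts Ppard was higher, at 137% of the WT level, and Ppargc1b and Rxrg were lower, at 79.4% and 84.8%. These 3 of 10 members had an adjusted p under 0.05 in limma, which compares the groups gene by gene, with Benjamini-Hochberg adjustment over all 14950 genes. Over all genes tested 24.6% passed, 10.8% higher and 13.9% lower in KO, so a share of 3 in 10 lies near the background. The groups did not overlap for 4 members (the 3 above and Esrrb), against 28.6% of all genes tested. Differences were above 0 for 5 members and below 0 for 5, with a median of -0.015 and a mean of 0.012 on the log2 scale, against a median of -0.0062 for all genes tested. The median size of the difference, sign aside, was 0.16 for the members and 0.11 for all genes.

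All levels below are the log2 of the deposited linear intensities. Differences are KO minus WT, and means are given with SD over n = 4 hearts per group. The label check came from Hdac3, which was 10.10 ± 0.08 in WT and 8.57 ± 0.05 in KO hearts with no overlap. Median intensity was 54.1 to 56.5 on the 8 arrays, and across clusters the arrays correlated at 0.993 to 0.996 within WT, 0.995 to 0.997 within KO and 0.989 to 0.992 between groups, with clusters not being independent replicates. All 12 cardiomyocyte markers passed the filter on dim genes. Of 20 macrophage markers 20 were higher in KO (median difference 1.34), of 10 fibroblast markers 4 were higher and 0 lower, of 10 endothelial markers 1 was higher, and of 8 tested adipocyte markers 0 passed in limma (0 at an unadjusted p under 0.05). Of 12 cardiomyocyte markers 4 were lower and 0 higher. The share called was 100% for macrophage, 40% for fibroblast, 33.3% for cardiomyocyte and 10% for endothelial markers, against 24.6% of all genes tested. Even the dimmest cardiomyocyte marker was brighter than 98.2% of genes tested, and no comparison with genes of like brightness was run. The cardiomyocyte count is therefore not read as a result about that cell type. In RNA from a whole organ, fewer cells of a type and less RNA per cell cannot be told apart, and the number of arrays limits the precision.

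**Figure D1:**
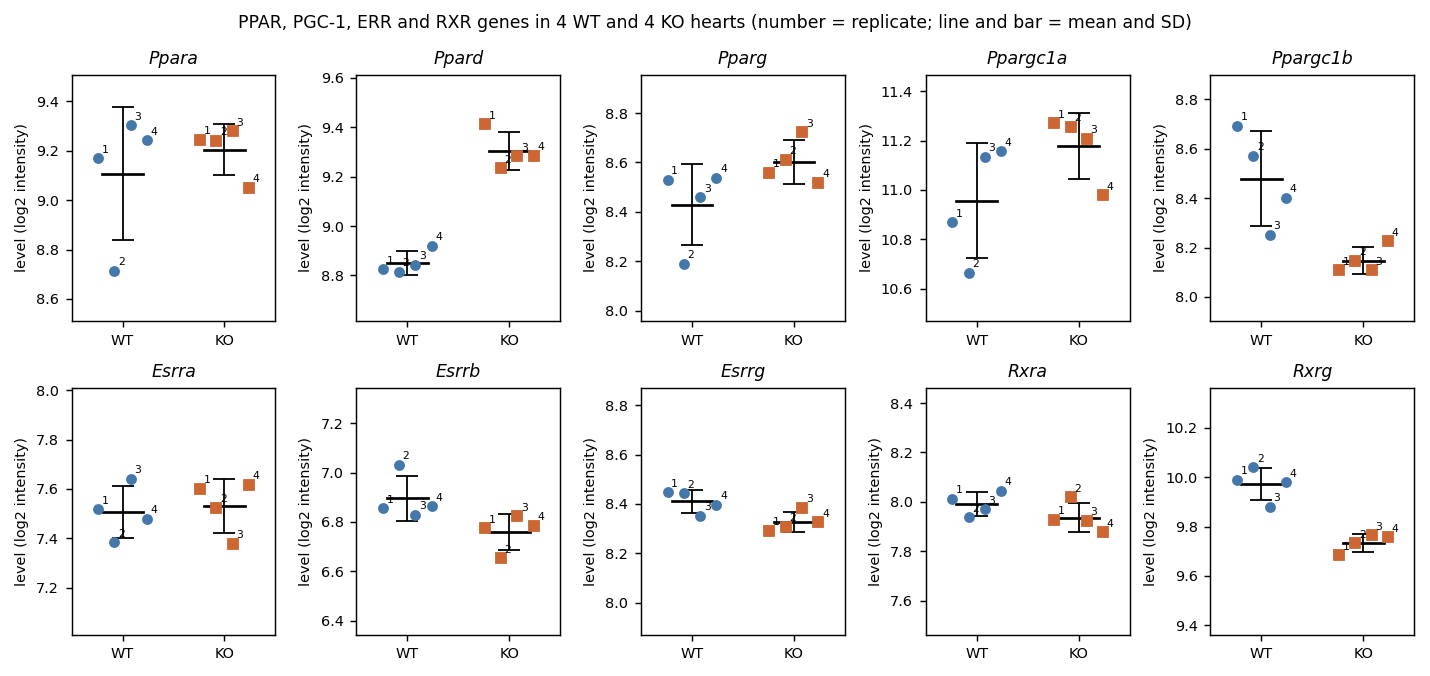
Level (log2 intensity) of the 10 genes in each of 4 WT and 4 KO hearts, with the replicate number beside each point, a line at the mean and a bar of 1 SD each way; every panel spans 1 log2 unit. The groups separate for Ppard, Ppargc1b, Rxrg and, narrowly, Esrrb, and WT replicate 2 is the lowest WT point for Ppara, Pparg and Ppargc1a.

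Sequences are shown for the promoters of Ppard and Rxrg, members that passed the test in opposite directions. Each window runs from 250 bases before to 50 bases after an annotated start and was taken from RefSeq, build GRCm38.p6, printed 5′ to 3′ on the gene's strand, which is the plus strand for both genes. Capitals mark matches, on either strand, to the nuclear receptor half-site AGGTCA or to TGACG, the core of the cAMP response element. The Ppard window lies at chr17:28232504-28232803 and the Rxrg windows, for separate starts, at chr1:167598112-167598411 and chr1:167618015-167618314.
Ppard: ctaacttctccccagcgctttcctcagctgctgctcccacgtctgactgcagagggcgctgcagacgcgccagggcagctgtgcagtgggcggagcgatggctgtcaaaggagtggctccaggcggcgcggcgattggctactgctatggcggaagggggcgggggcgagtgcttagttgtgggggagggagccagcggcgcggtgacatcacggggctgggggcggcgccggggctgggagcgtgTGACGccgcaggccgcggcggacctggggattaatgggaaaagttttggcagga
Rxrg, first start: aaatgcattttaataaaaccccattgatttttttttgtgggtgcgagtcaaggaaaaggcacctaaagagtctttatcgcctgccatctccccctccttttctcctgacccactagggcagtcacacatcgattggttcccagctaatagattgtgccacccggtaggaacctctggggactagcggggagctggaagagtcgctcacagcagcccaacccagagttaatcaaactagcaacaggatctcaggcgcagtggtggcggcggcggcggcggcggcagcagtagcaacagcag
Rxrg, second start: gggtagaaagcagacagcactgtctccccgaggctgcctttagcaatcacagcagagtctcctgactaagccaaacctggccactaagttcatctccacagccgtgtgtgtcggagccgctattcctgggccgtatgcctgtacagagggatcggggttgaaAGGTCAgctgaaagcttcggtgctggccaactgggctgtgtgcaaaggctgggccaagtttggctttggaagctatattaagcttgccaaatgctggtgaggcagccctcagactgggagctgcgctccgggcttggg

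The Ppard window held TGACG, ending at the start itself, and no AGGTCA. The Rxrg window of the second start held AGGTCA with its first base at -88 relative to the start, and that of the first start held neither motif. Over the 17 windows examined for 9 members (Ppargc1b was not among them), AGGTCA occurred in 4, which belong to Pparg, Rxra and Rxrg, and TGACG in 4, which belong to Ppara, Ppard, Ppargc1a and Esrrb. In all 32851 promoter windows of this length the shares were 16.3% for AGGTCA and 20.8% for TGACG. The ERR element TCAAGGTCA, which contains AGGTCA, was in 0 of the 17 windows and in 0.423% of all windows. A pair of AGGTCA half-sites in direct repeat with 1 base between, the PPAR and RXR element in its perfect form, was in 0 of the 17 and in 0.0396% of all. These matches describe letters in a window and do not show binding.

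Among the PPAR genes Ppard alone passed the test. Ppard (transcript cluster 10443332) encodes PPAR delta, which is expressed in most tissues and in heart muscle activates genes of fatty acid oxidation. Its levels were 8.83, 8.81, 8.84 and 8.92 in the WT hearts and 9.41, 9.23, 9.28 and 9.28 in the KO hearts. The highest WT heart lay below the lowest KO heart, and KO replicate 1 was the highest. From 8.85 ± 0.05 to 9.30 ± 0.08, Ppard rose by 0.45 (SE 0.05, 95% interval 0.33 to 0.57, limma adjusted p = 0.000202), or 1.37-fold. Of all genes tested, 7.07% had a difference at least as large in size. Macrophages also express Ppard, and over the 20 macrophage markers the mean level, relative to WT, was -0.10 to 0.13 in WT and 1.08 to 1.29 in KO hearts. Their summed intensity was 4605 to 5414 in WT and 10913 to 13440 in KO, and their part in the rise was not tested.

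Ppara (cluster 10425987) encodes PPAR alpha, the main fatty acid receptor of heart and liver. Its levels were 9.17, 8.71, 9.30 and 9.24 in the WT hearts and 9.24, 9.24, 9.28 and 9.05 in KO hearts. WT replicate 2 lay well below the others, KO replicate 4 was the lowest KO heart, and the remaining 6 hearts lay between 9.17 and 9.30. Means were 9.11 ± 0.27 and 9.20 ± 0.10, and the difference of 0.10 (SE 0.12, 95% interval -0.17 to 0.36) did not pass (limma adjusted p = 0.622). Without WT replicate 2 it was -0.035 (adjusted p = 0.767), so its sign rested on that heart. The interval covers changes in either direction, and Ppara is therefore not shown to be the same in both groups.

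Pparg (cluster 10540897) encodes PPAR gamma, the receptor that drives fat cell differentiation and is also active in macrophages. WT levels were 8.53, 8.19, 8.46 and 8.54, and KO levels 8.56, 8.61, 8.72 and 8.52. The groups overlapped through KO replicate 4, and WT replicate 2 was again the lowest. The difference was 0.17 (SE 0.08, 95% interval -0.01 to 0.36, limma adjusted p = 0.161), and it was 0.09 without WT replicate 2. Beside it, the summed intensity of 10 adipocyte markers was 3248 to 3540 in WT and 3327 to 3603 in KO hearts. The leptin gene Lep and the thermogenic gene Ucp1 lay under the filter on dim genes. Bright genes weigh most in such a sum, and Fabp4 was the brightest (11.18 in WT), whereas Adipoq was dim (4.66 in WT). The macrophage markers were at 1.08 to 1.29 in KO hearts relative to WT, and the part of either cell type was not tested. Among the 8 tested adipocyte markers, Fabp4 differed by 0.11 (limma adjusted p = 0.192) and Plin4 by -0.14 (adjusted p = 0.363).

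The PGC-1 coactivator genes had differences of opposite sign. Ppargc1b (cluster 10459193) was 8.69, 8.57, 8.25 and 8.40 in WT and 8.11, 8.15, 8.11 and 8.23 in KO hearts. All KO values were lower than the lowest WT value, by a narrow margin between KO replicate 4 and WT replicate 3. The KO hearts were close together (SD 0.06), whereas the WT hearts spread over 0.44 (SD 0.19). Ppargc1b fell by 0.33 (SE 0.09, 95% interval -0.53 to -0.14, limma adjusted p = 0.019), which made it 1.26-fold lower. The call was lost without KO replicate 1 (-0.32, adjusted p = 0.0544), and the adjusted p ran from 0.00444 to 0.0544 over the alternatives. Of all genes tested, 12.5% had a difference at least as large in size.

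Ppargc1a, whose product is induced by cold, fasting and exercise, was read by 2 clusters. In the brighter (10529979) WT levels were 10.87, 10.67, 11.14 and 11.16 and KO levels 11.27, 11.26, 11.21 and 10.98. The first 3 KO hearts lay above every WT heart, and KO replicate 4 lay among them. The difference was 0.22 (SE 0.11, 95% interval -0.03 to 0.47) and did not pass (limma adjusted p = 0.189), and it was 0.12 without WT replicate 2. The dimmer cluster (10529977) ranked the hearts alike in both groups at their low ends, with WT replicate 2 (8.88) and KO replicate 4 (9.30) lowest, and differed by 0.29 (9.23 ± 0.31 in WT, 9.52 ± 0.16 in KO). With both clusters averaged, Ppargc1a was still not called.

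Within the WT hearts the coactivator genes varied against each other. WT replicates 1 and 2 had the lower Ppargc1a and the higher Ppargc1b values, and WT replicates 3 and 4 the reverse. The log2 ratio of Ppargc1a to Ppargc1b within a heart was therefore 2.18, 2.09, 2.88 and 2.76 in WT, and 3.16, 3.11, 3.10 and 2.75 in KO hearts. The ratio was higher in KO by 0.55, with means of 2.48 ± 0.40 and 3.03 ± 0.19, and KO replicate 4 overlapped the WT hearts. In an exact two-sided permutation test over all 70 assignments of the arrays p was 0.0857, and 0.171 after adjustment over 8 ratios. No pair could pass that adjustment unless 5 of the 8 ratios reached the smallest p of the design, so the adjusted value does not settle whether the coactivator genes changed unequally.

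**Figure D2:**
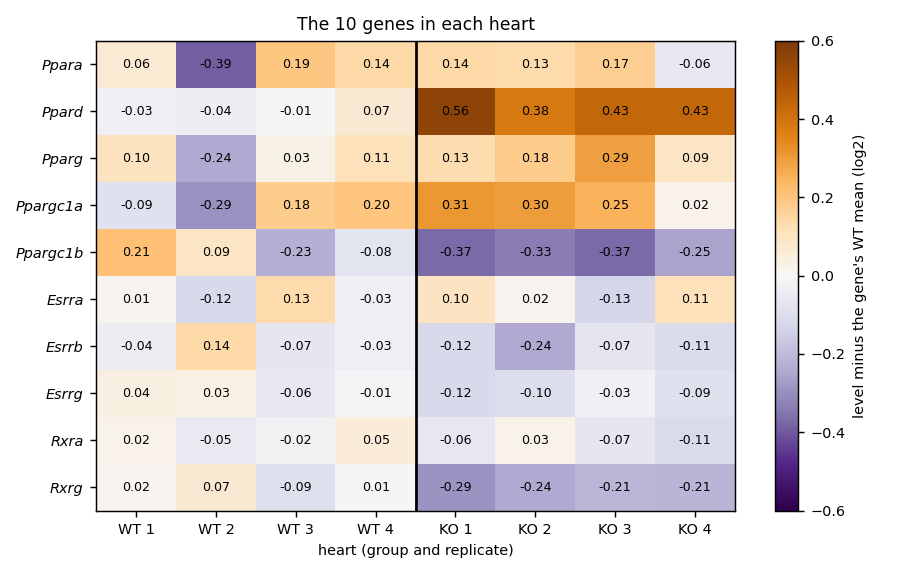
Level of each gene minus its own WT mean (log2) in each of the 8 hearts, by group and replicate; orange is above and purple below the WT mean. Ppard is at 0.38 to 0.56 in every KO heart and Rxrg at -0.29 to -0.21, while Ppara, Pparg and Ppargc1a share a low value in WT replicate 2 (-0.39, -0.24 and -0.29).

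WT replicate 2 was the lowest WT heart for 6 of the 10 members, against 23.7% of all genes tested, and KO replicate 4 was the lowest KO heart for 4 of 10, against 37.2%. For Ppara, Pparg, Ppargc1a and Rxra both held. For Ppard, WT replicate 2 was lowest by a narrow margin (8.81 against 8.83 in WT replicate 1). It was the highest WT heart for Esrrb (7.03) and Rxrg (10.04). These hearts were singled out after the values were seen. WT replicate 2 had the highest mean of every marker list in its group. Relative to WT this mean was 0.13 for macrophage, 0.17 for endothelial, 0.15 for fibroblast, 0.12 for adipocyte and 0.02 for cardiomyocyte markers. KO replicate 4 had the lowest mean of the KO hearts for macrophage (1.08), endothelial (-0.02) and fibroblast (0.11) markers. Whether cell makeup has a part in the low values was not tested. With WT replicate 2 left out, 3 members were still called.

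None of the ERR genes passed the test. Esrra (cluster 10465485) encodes ERR alpha, a main partner of PGC-1 alpha on mitochondrial genes. It was 7.52, 7.39, 7.64 and 7.48 in WT and 7.60, 7.52, 7.38 and 7.62 in KO hearts, and the groups covered the same span. The difference was 0.024 (SE 0.07, limma adjusted p = 0.853), and its 95% interval of -0.14 to 0.18 bounds the change in either direction. Its sign turned without WT replicate 2 (-0.016) and without KO replicate 4 (-0.00480).

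Esrrg (cluster 10352576) encodes ERR gamma, which is abundant in heart and slow muscle and supports the shift to oxidative metabolism after birth. It was 8.45, 8.44, 8.35 and 8.40 in WT and 8.29, 8.31, 8.38 and 8.33 in KO hearts. KO replicate 3 overlapped the WT range. The difference of -0.08 (SE 0.05, 95% interval -0.19 to 0.02) did not pass (limma adjusted p = 0.25).

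Esrrb (cluster 10397440) encodes ERR beta, best known from the placenta and pluripotent cells. The WT hearts had levels of 6.86, 7.03, 6.83 and 6.86 and the KO hearts 6.77, 6.65, 6.82 and 6.78. The groups did not overlap, but WT replicate 3 (6.8297) and KO replicate 3 (6.8238) were nearly equal. With a difference of -0.14 (SE 0.06, 95% interval -0.27 to 0.00070) it did not pass (limma adjusted p = 0.141), and the difference was -0.09 without WT replicate 2.

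Of the RXR genes Rxrg fell and Rxra did not pass. Rxrg (cluster 10351430), the isotype with the most restricted expression and prominent in striated muscle, was 9.99, 10.04, 9.88 and 9.98 in WT and 9.68, 9.73, 9.77 and 9.76 in KO hearts. Every KO heart lay below every WT heart, and both groups were narrow (SD 0.07 and 0.04). Rxrg fell by 0.24 (SE 0.05, 95% interval -0.35 to -0.12, limma adjusted p = 0.00652), or 1.18-fold. Of all genes tested, 21.1% had a difference at least as large in size. Of the cardiomyocyte markers, Ryr2, the calcium release channel, fell by 0.53 (adjusted p = 3.27e-05), and the others that fell were Csrp3 (-0.30), Myl2 (-0.20) and Mybpc3 (-0.15). The remaining 8 did not pass. Among these, Myl3 (0.08), Ttn (0.05), Mb (0.04) and Tnnt2 (0.01), named after their values were seen, had differences above 0. Over all 12 markers the mean was -0.01 to 0.02 in WT and -0.12 to -0.09 in KO hearts relative to WT, with summed intensities of 86658 to 87807 and 82689 to 84127. The part of these markers in the fall of Rxrg was not tested.

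Rxra (cluster 10470446), the isotype with wide expression and the usual partner of the PPARs, was 8.01, 7.94, 7.97 and 8.05 in WT and 7.93, 8.02, 7.92 and 7.88 in KO hearts. The groups overlapped, since KO replicate 2 lay among the WT hearts. The difference was -0.06 (SE 0.05, 95% interval -0.17 to 0.06, limma adjusted p = 0.493), and it was -0.04 without KO replicate 4. The third isotype, Rxrb, named after its values were seen, stood at 7.51, 7.46, 7.53 and 7.50 in WT and 7.65, 7.70, 7.61 and 7.59 in KO hearts. Rxrb differed by 0.14 (limma adjusted p = 0.0544), above every WT heart in all KO hearts but short of the threshold.

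**Figure D3:**
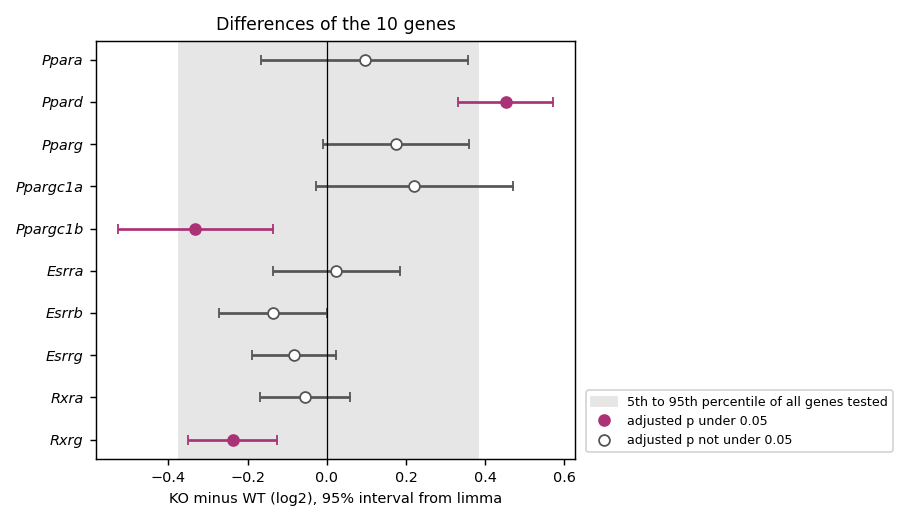
Difference between KO and WT (log2) of the 10 genes with its 95% interval from limma; filled points had an adjusted p under 0.05, and the grey band runs from the 5th to the 95th percentile of all genes tested (-0.37 to 0.38). Ppard lies outside the band, and the intervals of 7 genes include 0.

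Whether members of a family changed unequally was asked from the log2 ratio of 2 members within each heart, for 8 pairs fixed with earlier results known. With 4 hearts a group the smallest p that the exact two-sided permutation test allows is 0.0286, and after adjustment over the 8 pairs 0 passed (1 before it). That outcome was nearly fixed by the design, since at least 5 of the 8 pairs had to reach the smallest p for any to pass. Rxra over Rxrg reached that smallest p (0.0286, adjusted 0.171): the ratio was -1.98, -2.10, -1.91 and -1.93 in WT and -1.76, -1.71, -1.84 and -1.88 in KO hearts. It was higher in all KO hearts, by 0.18.

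Ppara over Ppard was 0.34, -0.10, 0.46 and 0.32 in WT and -0.17, 0.01, -0.00410 and -0.23 in KO hearts. The ratio was lower in KO by a difference of -0.36 (exact permutation p = 0.0857, adjusted 0.171), with WT replicate 2 among the KO values. Ppard over Pparg was higher by 0.28 (exact permutation p = 0.0857, adjusted 0.171), and WT replicate 2 again crossed into the KO range. For Ppara over Pparg (-0.08), Esrra over Esrrb (0.16), Esrra over Esrrg (0.11) and Esrrb over Esrrg (-0.05) the exact permutation p was 0.286 to 0.371. With 1 heart left out these differences ran from -0.13 (without WT replicate 2) to -0.02 (without WT replicate 3) for Ppara over Pparg. Leaving out WT replicate 2 gave the lowest and leaving out KO replicate 3 the highest values for Esrra over Esrrb (0.07 to 0.23) and Esrra over Esrrg (0.06 to 0.18, with 0.17 without WT replicate 3). Esrrb over Esrrg ran from -0.08 without WT replicate 1 to -0.02 without WT replicate 2 or KO replicate 2. None of these 4 kept its size within 1.5 times.

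**Figure D4:**
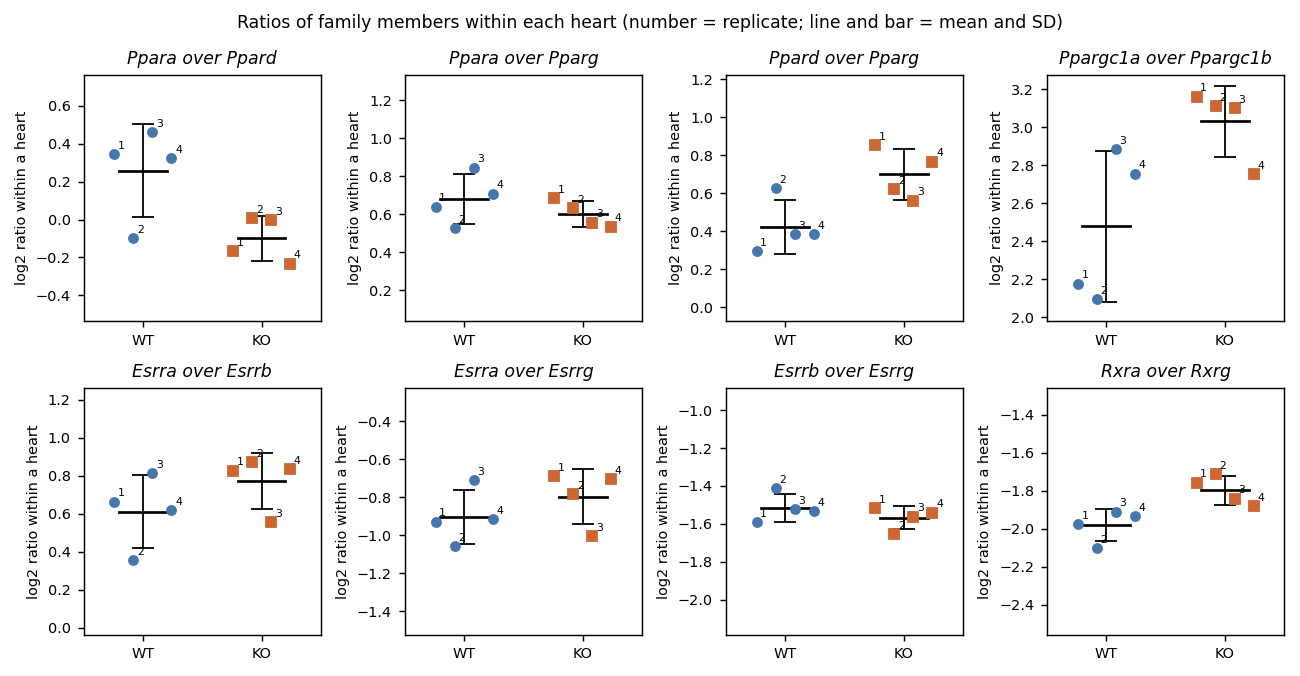
Log2 ratio of family members within each heart for 8 pairs in 4 WT and 4 KO hearts, with replicate numbers, a line at the mean and a bar of 1 SD each way; every panel spans 1.3 log2 units. The groups separate only for Rxra over Rxrg, and WT replicate 2 lies apart from the other WT hearts in Ppara over Ppard.

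The genes around these regulators were read from lists that were written with an earlier account of the data known, so they are not independent evidence. The share of all genes is set beside each list, but the share called depended on brightness. With a stricter dim filter, at the 50th percentile of mean level, 3678 of 9967 genes were called (median difference -0.0273). No comparison with genes of like brightness was run. Textbook targets of PPAR alpha and delta had 31 tested members, of which 14 fell, 3 rose and 14 did not pass (54.8% called, against 24.6% of all genes; median -0.06 against -0.0062). Fitm1, which serves lipid droplet formation, fell by 1.27 on the log2 scale (adjusted p = 1.97e-06 in limma), the carnitine transporter gene Slc22a5 by 0.74, the mitochondrial thioesterase gene Acot2 by 0.63 and the short-chain acyl-CoA dehydrogenase gene Acads by 0.63. Ucp3 (0.97), a mitochondrial uncoupling protein gene, Plin5 (0.29), a lipid droplet coat gene, and Lpl (0.22), the lipoprotein lipase gene, rose and were named after their values were seen. Relative to WT, the mean over tested members was -0.05 to 0.04 in WT and -0.15 to -0.09 in KO hearts, without overlap. Cyp4a14 and Vnn1 were under the filter, and Cpt1b, Acsl1 and Ucp2 were among the list's genes not analysed here.

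Targets shared by the ERRs and PGC-1 had 43 tested members, of which 15 fell, 3 rose and 25 did not pass (41.9% called, against 24.6% of all genes; median -0.11). The fumarase gene Fh1 fell by 0.39, the complex I gene Ndufs1 by 0.38, the malate dehydrogenase gene Mdh2 by 0.37 and the mitochondrial fusion gene Mfn1 by 0.36, with limma adjusted p from 0.000147 to 0.000926. The risers, named after their values were seen, were Tfam (0.43) and Tfb2m (0.28), which serve transcription of mitochondrial DNA, and the angiogenic factor gene Vegfa (0.21). The mean over members was -0.01 to 0.01 in WT and -0.11 to -0.09 in KO hearts relative to WT. The cardiomyocyte markers stood at -0.12 to -0.09 in the same KO hearts and the macrophage markers at 1.08 to 1.29, and their part in both target lists was not tested. How many members fell depended on the processing, from 14 to 24 over the alternatives. In place of 15, 24 fell under an intensity trend with robust variances and 22 with quantile normalisation. The 3 rises became 1 without WT replicate 3 and without KO replicate 1 or 2.

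Of 21 tested cofactors of these receptors, 4 rose, 4 fell and 13 did not pass (38.1% called, against 24.6% of all genes; median -0.04). The 4 falls include the targeted gene Hdac3, which fell by 1.54, a call that the design fixed in advance. Under the stricter dim filter 3678 of 9967 genes were called. The share called among the cofactors is therefore not read as a result about the list. Nr0b2, the orphan receptor SHP that represses other nuclear receptors, was 7.98, 7.61, 7.61 and 7.48 in WT and 6.36, 6.31, 6.42 and 6.23 in KO hearts. It fell by 1.34 (SE 0.10, limma adjusted p = 9.93e-06), a wide gap between the groups. Tbl1xr1, a subunit of the corepressor complexes that contain HDAC3, rose by 0.53 (adjusted p = 7.89e-05), and its paralogue Tbl1x, named after its values were seen, by 0.32. Lpin1, a lipid phosphatase that also coactivates PPAR alpha with PGC-1 alpha, rose by 0.25. The remaining calls, named after their values were seen, were Ncoa3 (0.18), Ncoa1 (-0.16) and Smarcd3 (-0.18). The 4 falls became 2 without KO replicate 2. Ncor1 and Perm1 were among the list's genes not analysed here.

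Genes that act on PGC-1 alpha or its gene had 28 tested members, of which 3 rose, 3 fell and 22 did not pass (21.4% called, median 0.00470, mean -0.016). With 24.6% of all genes called, this share is near the background and is no result about the list. Rcan1, an inhibitor of calcineurin that calcineurin signalling itself induces, rose by 0.50 (limma adjusted p = 0.00171), the transcription factor gene Mef2d by 0.24 and the calcineurin catalytic gene Ppp3ca by 0.21. Prkab1, a regulatory subunit of AMP-activated kinase, fell by 0.52 (adjusted p = 0.0011). The methyltransferase gene Prmt1 (-0.35) and Ppp3cb (-0.26), a second calcineurin catalytic gene, also fell and were named after their values were seen. The calcineurin catalytic paralogues thus passed in opposite directions.

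Partner receptors of RXR, with Rxrb, had 11 tested members, of which 2 rose, 1 fell and 8 did not pass (27.3% called, against 24.6% of all genes, so again near the background; median -0.06). The thyroid hormone receptor gene Thra fell by 0.31 (limma adjusted p = 0.00141). Nr1h3, the oxysterol receptor LXR alpha that is also prominent in macrophages, rose by 0.29 (adjusted p = 0.0137), and the retinoic acid receptor gene Rara by 0.27 (adjusted p = 0.0452). The macrophage markers were at 1.08 to 1.29 in the same KO hearts, and their part was not tested. The count of 2 rises became 1 without WT replicate 1, 3 or 4 and without KO replicate 1 or 2, and the 1 fall became 2 without WT replicate 4. Of 16 other nuclear receptors tested 2 fell, 0 rose (0 also at an unadjusted p under 0.05) and 14 did not pass in limma. The share called was 12.5%, against 24.6% of all genes, and the median was -0.09. All calls were falls, and 13.9% of all genes were called lower, so the share of falls is near the background. The falls were Rorb (-0.41) and the mineralocorticoid receptor gene Nr3c2 (-0.22). Rorb was dim, at 5.06 ± 0.26 in WT against a filter at 4.50. These falls were 0 without WT replicate 1, and 1 without WT replicate 2 or without KO replicate 1, 2 or 4.

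**Figure D5:**
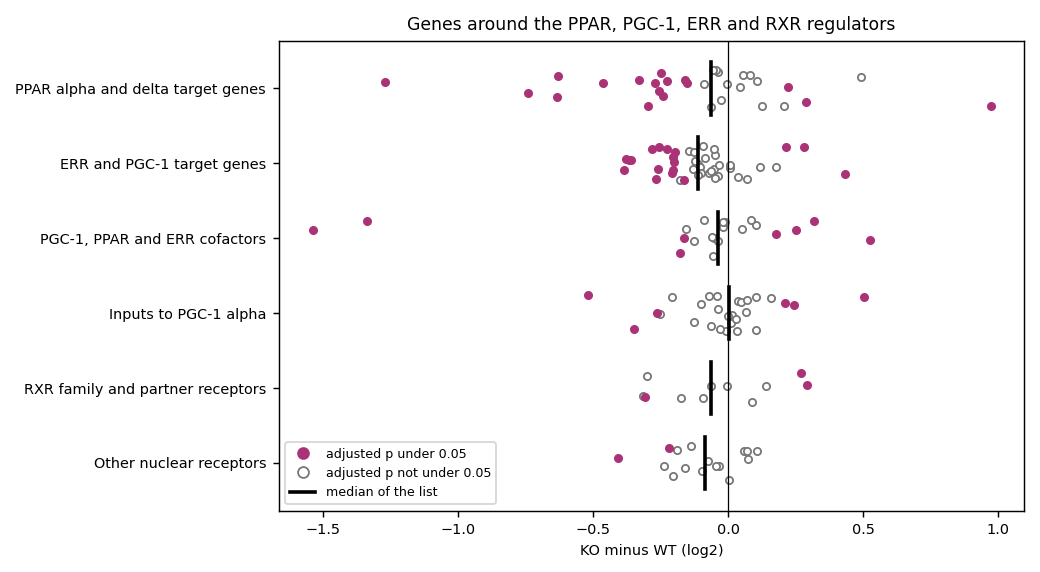
Difference between KO and WT (log2) of every tested gene in 6 lists around the regulators; filled points had an adjusted p under 0.05 in limma and black lines mark the median of each list. Most calls among the target genes lie left of 0, and the far left points of the cofactor list are Hdac3 and Nr0b2.

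The genes whose course over the 8 hearts was closest to Ppard, the called member with the largest rise, were Cebpd, Lix1l and Tmco6. Closeness was the root mean square difference of log2 levels, each taken relative to the gene's own WT mean, and it was 0.05, 0.05 and 0.06. These genes rose by 0.46, 0.42 and 0.42. For Ppargc1b, the called member with the largest fall, the closest were Epn3, Mme and Slc25a35, at 0.06 each, with differences of -0.36, -0.36 and -0.37. These likenesses are a description over 8 hearts that share the group difference.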

How the data were processed

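Per the labels' protocols, hearts were frozen in liquid nitrogen and RNA was taken up in Trizol. The submitters' processing notes name Partek and RMA, without version or role. The deposited table holds 1 intensity per transcript cluster and array on a linear scale. Background correction, probe annotation and genome build: not given in the sources used here. Clusters with 1 symbol were kept (21631 of 27541), the brightest per gene, and genes whose mean over all arrays was under the 25th percentile (log2 4.50) were left out. KO and WT were compared on log2 intensity with limma 3.58.1 in R 4.3.3 (lmFit, eBayes, two-sided, no covariate), with Benjamini-Hochberg adjustment over 14950 genes and a threshold of 0.05. The test was checked on simulated data first. Summaries and figures used Python 3.11.15. The members and lists were chosen with earlier results of these data known. Genes named were the members, Hdac3, up to 4 called genes of each list by smallest p (2 where none was called) and the 3 closest to each of 2 members. Any other gene was named after its values were seen. Scan batches could not be examined. Same-numbered hearts did not deviate together (correlations of deviations -0.04 to 0.08), so the numbers were not used as pairs. Alternatives were other scalings, dim filters, an added intensity, variance models, array weights, cluster handling, the replicate block and each array left out.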

Additional observations from a re-analysis of the deposited data

Results flagged for a closer look

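In a group of 4 hearts, a value was picked out when its gap to the nearest other heart exceeded Dixon's critical share (at the 95% level) of the group's whole range. This was so in 7 of 92 groups (46 genes), and chance alone picks about 1 group in 20. Among the members, Ppara was 9.05 in KO replicate 4 against 9.24 to 9.28 in the other KO hearts, and Esrrb was 7.03 in WT replicate 2 against 6.83 to 6.86. The others were Hdac3 in KO replicate 4 (8.50), Rara in KO replicate 3 (6.68), Rorb in KO replicate 2 (4.62), Lum in WT replicate 1 (8.59) and Postn in KO replicate 4 (9.67).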

How the results depend on the processing

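Over the alternatives run for the 10 members and the ratios, directions and calls held except as follows. Ppara turned to -0.035 and Esrra to -0.016 without WT replicate 2, and Esrra to -0.00480 without KO replicate 4; with 1 heart left out Ppara ran from -0.035 to 0.16 and Esrra from -0.016 to 0.075. Ppargc1b ran from -0.41 to -0.26 and lost its call without KO replicate 1. With the replicate block, 3 members and 3382 of all genes were called, and no member's call changed. Rises among PPAR targets were 6 with array weights. Falls among ERR and PGC-1 targets were 24 with an intensity trend and robust variances and 22 with quantile normalisation. Falls among inputs to PGC-1 alpha were 5 with centred array medians, the stricter dim filter, an added intensity of 16 or the intensity trend. Rises among RXR partners were 1 with centred medians or no filter, and falls among other receptors 1 with quantile normalisation or no filter. With 1 heart left out, rises were 1 to 3 (ERR and PGC-1 targets) and 1 to 2 (RXR partners), and falls 2 to 4 (cofactors), 1 to 2 (RXR partners) and 0 to 2 (other receptors). The cause of these shifts was not tested.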
